A study of Rattus norvegicus with 4 samples.

Results

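The genes described here are those of the potassium channels of the rat hippocampus, the pore-forming subunits and the auxiliary subunits that carry a Kcn symbol. A gene was included when the platform annotation gave its probe set a single symbol of the families Kcna to Kcnv, Kcnma, Kcnmb, Kcnab, Kcnip or Kcne followed by a number. That rule found 126 probe sets of 75 genes among 14217 genes named on the array. The brightest probe set stood for a gene, and 33 of the 75 genes had a mean intensity over the 4 arrays above 62.75, the median of all probe sets that are not controls. Of all genes on the array, 9489 passed the same filter. Near the threshold, Kcnd1 passed with a mean of 84 and Kcnt1 did not with 52.25.

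The data were 4 Affymetrix arrays. The RNA came from area CA3 of Sprague-Dawley rat hippocampus, removed 24 h after the hippocampus was injected. 1 array each held RNA after kainic acid with the peptide NAP (KA+NAP), after kainic acid alone (KA), after NAP alone, and after PBS, the vehicle. Kainic acid is an agonist of kainate-type glutamate receptors and a standard excitotoxin, and NAP is a short peptide taken from activity-dependent neuroprotective protein. No age, sex or number of animals per array is given in the labels, and each array stands alone, so no value below has a replicate error and no test between groups was made. Differences are of log2(intensity + 10), and a difference of 1 is a 2-fold change on that scale. Intensity depends on the probes, so levels are compared only between arrays and never between genes.

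Potassium channels let potassium leave the neuron, set its resting potential, repolarise it after each action potential and limit repetitive firing. Voltage-gated Kv subunits open on depolarisation, calcium-activated subunits on a rise of calcium, inward rectifiers (Kcnj) hold the resting potential, and tandem-pore subunits (Kcnk) carry leak current. In the hippocampus, the A-type current of pyramidal cell dendrites is carried by Kcnd subunits with Kcnip partners, the M-type current by Kcnq subunits, and astrocytes clear potassium through inward rectifiers. Loss of these currents makes hippocampal neurons more excitable.

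Of the 33 members past the filter, 2 reached 2-fold in both comparisons of a KA-injected with a matched array, Kcnip2 at the lower end and Kcne4 at the upper end. Of all genes past the filter, 0.885% were at least 2-fold lower in both comparisons and 3.13% at least 2-fold higher in both. Kcne4 passed the filter through the KA-injected arrays. Their upstream sequences are shown because no other member past the filter was at 2-fold both without and with NAP. Each is the 250 bases before the annotated start from RefSeq (GRCr8), written on the gene's strand. Capitals mark matches, on either strand, to TGANTCA (AP-1), TGACGTCA (CRE), TGACG (CRE core), CACGTG (E-box) or GGGCGG (GC box).
Kcnip2 (GRCr8 chr1:254613899-254614148, minus strand): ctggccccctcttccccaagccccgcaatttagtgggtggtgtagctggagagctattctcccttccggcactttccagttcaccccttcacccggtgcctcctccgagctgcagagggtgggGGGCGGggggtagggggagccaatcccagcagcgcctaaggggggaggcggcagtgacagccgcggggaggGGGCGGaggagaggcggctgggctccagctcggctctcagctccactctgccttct
Kcne4 (GRCr8 chr9:87695798-87696047, plus strand): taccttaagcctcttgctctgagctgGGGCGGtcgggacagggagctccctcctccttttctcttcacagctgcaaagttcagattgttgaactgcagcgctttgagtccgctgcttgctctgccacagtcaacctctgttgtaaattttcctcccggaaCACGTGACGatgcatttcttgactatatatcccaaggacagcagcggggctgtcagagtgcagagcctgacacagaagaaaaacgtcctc
In Kcnip2 the 2 capital runs are GC boxes. In Kcne4 the first run is a GC box and the longer run is an E-box that overlaps a CRE core. A CRE core lies inside every full CRE.

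Of the 33 members, 25 had an upstream sequence in the RefSeq table under their symbol. Where a gene had several, the first listed was used. The GC box was in 13 of these 25 (52% against 61.3% of 7960 genes past the filter), and the CRE core in 4, those of Kcnab1, Kcne4, Kcnj4 and Kcnq5 (16% against 29.6%). The AP-1 letters were in 1, that of Kcnj16 (4% against 3.92%), and the E-box in 1, that of Kcne4 (4% against 8.53%). The full CRE was in 0 of the 25, against 3.22%. Over all 33469 upstream sequences in the table, every one of a gene counted, the shares in the same order of motifs were 30.5%, 18.2%, 6.34%, 5.59% and 1.59%. These are matches of letters and describe the windows only.

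**Figure D1:**
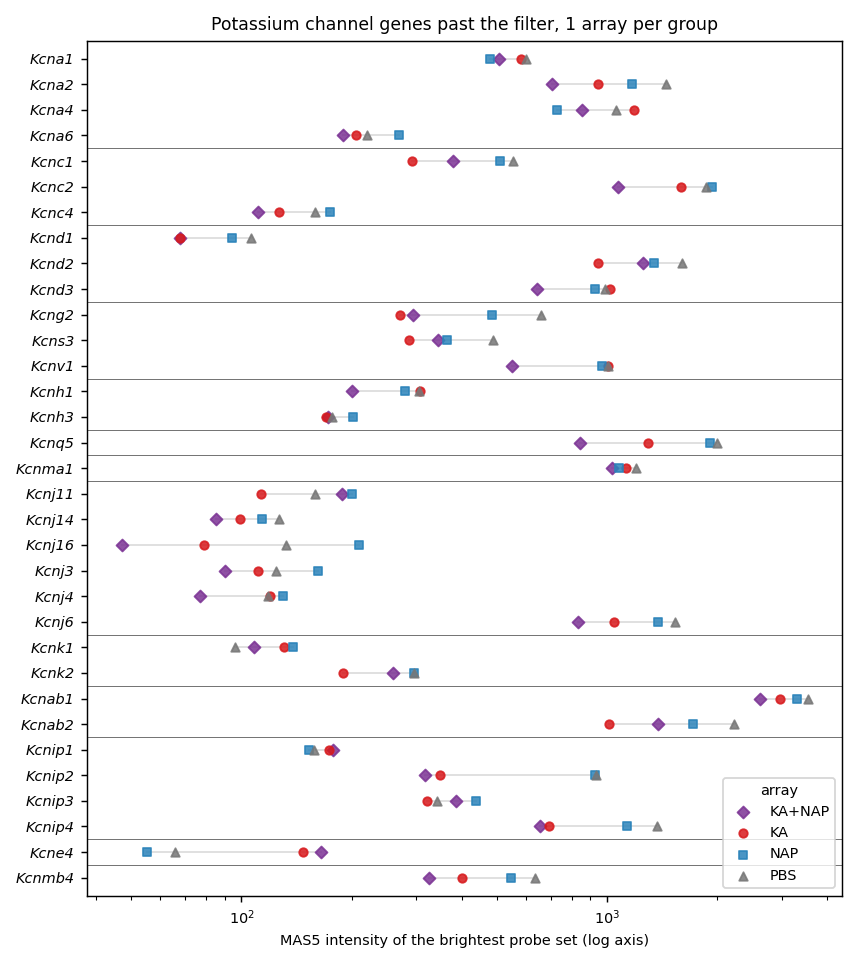
Intensity of each potassium channel gene past the filter on the KA+NAP, KA, NAP and PBS arrays (log axis), grouped by subfamily with lines between groups. Each marker is 1 array. For 21 of the 33 genes both KA-injected arrays lie to the left of both others, and for Kcne4 and Kcnip1 both lie to the right.

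As a group, the potassium channel genes were lower on the arrays of KA-injected animals. The summed intensity of the 33 members was 16922 with KA+NAP and 19355 with KA, against 23811 with NAP and 26256 with PBS. The median log2 difference was −0.30 in KA minus PBS, where all genes past the filter had a median of 0.02, and 25 of the 33 members lay below 0 (47.2% of all genes did). In KA+NAP minus NAP the median was −0.42 against 0.03 over all genes, and 29 of 33 lay below 0 (47.3% of all genes). 24 members lay below 0 in both comparisons, which share no array (32.9% of all genes). Both KA-injected arrays were below both others for 21 of 33 members, an order that 28.7% of all genes had. They were above both others for 2 members, Kcne4 and Kcnip1, an order that 32.3% of all genes had.

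Most of these differences were smaller than 2-fold. In KA minus PBS, 3 of 33 members were at least 2-fold lower (Kcnip2, Kcng2 and Kcnab2), where 2.39% of all genes were, and 1 was at least 2-fold higher (Kcne4), where 4.91% of all genes were. In KA+NAP minus NAP, 3 were at least 2-fold lower (Kcnj16, Kcnip2 and Kcnq5; 2.41% of all genes) and 1 at least 2-fold higher (Kcne4; 5.66%). The mean of Kcne4 over the 2 arrays without KA was 60.5, under the filter, so a higher value on the KA-injected arrays was a condition of its entry. Across the 33 members, the 2 differences had a Pearson correlation of 0.58 and a Spearman correlation of 0.40, and of 0.41 and 0.34 without Kcne4. Across all 9489 genes the values were 0.70 and 0.61. The points share arrays and probe chemistry and are not replicates.

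**Figure D2:**
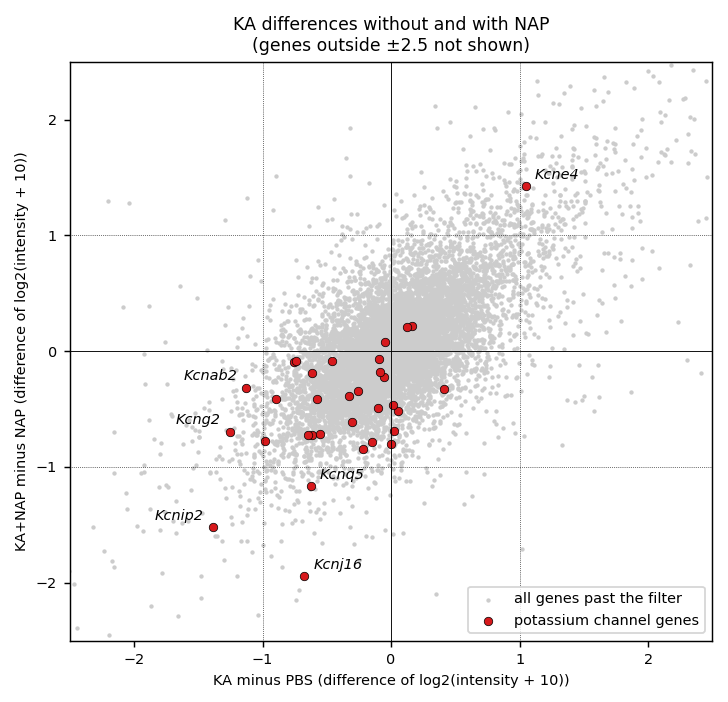
KA minus PBS (horizontal) against KA+NAP minus NAP (vertical), as differences of log2(intensity + 10), for the potassium channel genes (red) over all genes past the filter (grey). The dotted lines are at 2-fold, and 24 of the 33 red points lie below 0 on both axes.

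Brighter members had the lower medians. The 19 members with a mean intensity above the 75th percentile of probe sets (286) had a median of −0.61 in KA minus PBS, and the 14 dimmer ones −0.13. All genes in the same 2 ranges had medians of 0.02 and 0.04. In KA+NAP minus NAP the medians were −0.52 for the brighter and −0.40 for the dimmer members. Of the 33 members, 10 had more than 1 probe set past the filter. In KA+NAP minus NAP all probe sets of each of the 10 lay below 0, and in KA minus PBS those of 8 did, Kcnd3 and Kcnma1 being divided.

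Pan-neuronal and excitatory neuron markers were also lower on the arrays of KA-injected animals, while interneuron markers differed in direction. All 12 pan-neuronal markers were past the filter, and their summed intensity was 34878 with KA+NAP and 35449 with KA, against 43812 with NAP and 47109 with PBS. Their median log2 difference was −0.40 in KA minus PBS and −0.34 in KA+NAP minus NAP. The 9 excitatory and CA3 pyramidal markers on the array, also all past the filter, summed to 3571 with KA+NAP and 3827 with KA, against 5614 with NAP and 5719 with PBS, with medians of −0.57 and −0.74 in the 2 comparisons. The GABAergic interneuron markers, 7 of 7 past the filter, summed to 5218 and 5267 with KA+NAP and KA, against 5701 and 5713 with NAP and PBS. Their medians were −0.17 and 0.10, and among them Gad2 was at 1.15 and Pvalb at −1.08 in KA minus PBS. No marker of these 3 lists was at or under an intensity of 10 on all arrays. In whole tissue, fewer neurons and less channel RNA per neuron cannot be told apart, and the part of the neuronal markers in the channel differences was not tested.

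Markers of neighbouring hippocampal fields and of reactive cells also differed between arrays. The 5 CA1 pyramidal markers, of a neighbouring field, summed to 2988 with KA+NAP and 1327 with KA, against 1981 with NAP and 3153 with PBS. The 4 dentate granule markers on the array summed to 3336 and 5062 with KA+NAP and KA, against 5320 and 4229 with NAP and PBS. Reactive astrocyte markers, 7 on the array, summed to 12248 with KA+NAP and 8942 with KA, against 3576 with NAP and 1435 with PBS. Microglia and macrophage markers, 9 of 10 past the filter, summed to 6595 with KA+NAP and 3784 with KA, against 5304 with NAP and 5737 with PBS. Their median was 0.13 in KA minus PBS and 0.97 in KA+NAP minus NAP. In both comparisons 4 of them (Cd14, Cd68, Cybb and Tyrobp) were at least 2-fold higher (3.13% of all genes past the filter were). The 1 marker at least 2-fold lower in both (0.885% of all genes) was P2ry12, of resting microglia, at −2.16 and −1.05. The part of any of these in the channel values was not tested.

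Among the Kv subunits of the Kcna family, which form low-threshold channels of axons and terminals, Kcna2 was the one with lower values on both KA-injected arrays by more than 0.5. Its intensity was 705 with KA+NAP and 941 with KA, against 1168 with NAP and 1446 with PBS. The log2 difference was −0.61 in KA minus PBS and −0.72 in KA+NAP minus NAP. Kcna2 had a second probe set, below the filter with a mean intensity of 32, which gave 0.18 and −0.16 in these comparisons. Kcna1, its partner in axonal channels, had 506 with KA+NAP, 580 with KA, 477 with NAP and 598 with PBS, so the KA-injected arrays lay between the others. Kcna4, the A-type subunit of axon terminals, had 853 with KA+NAP, 1185 with KA, 731 with NAP and 1057 with PBS, a difference of 0.16 without and 0.22 with NAP. Kcna6 was lower by less, with −0.10 and −0.49. The median of the 4 Kcna genes past the filter was −0.07 in KA minus PBS and −0.20 in KA+NAP minus NAP.

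The Kcnc genes, whose fast channels let interneurons fire at high rates, were lower in all 3 members and in both comparisons. Of all genes past the filter, 32.9% lay below 0 in both. Kcnc1 had 379 with KA+NAP and 292 with KA, against 508 with NAP and 553 with PBS, a difference of −0.90 in KA minus PBS and −0.41 in KA+NAP minus NAP. Kcnc2 had 1072 with KA+NAP and 1595 with KA, against 1931 with NAP and 1859 with PBS. For Kcnc2 the larger difference was the one with NAP, −0.84 against −0.22 in KA minus PBS. Its second probe set past the filter gave −1.03 in KA+NAP minus NAP and −0.90 in KA minus PBS, so the difference between the comparisons depends on the probe set. Kcnc4 stood at −0.30 in KA minus PBS and −0.61 in KA+NAP minus NAP.

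The A-type channel of dendrites is built from Kcnd pores, calcium-binding Kcnip subunits and the dipeptidyl peptidase-like proteins Dpp6 and Dpp10, and its genes did not move alike. Kcnip2, which speeds recovery and raises surface expression of Kcnd channels, had the lowest mean of the KA differences among the 33. Its intensity was 317 with KA+NAP and 350 with KA, against 927 with NAP and 932 with PBS. The 2 KA-injected arrays were close to each other and far below the other 2, which were also close. The log2 difference was −1.52 in KA+NAP minus NAP and −1.39 in KA minus PBS, and −0.14 in KA+NAP minus KA. A dimmer probe set of Kcnip2 below the filter read 25 and 29 with KA+NAP and KA, against 72 and 74 with NAP and PBS.

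Kcnip4, which slows inactivation of the same channels, followed the same order at a smaller distance. It had 656 with KA+NAP and 691 with KA, against 1132 with NAP and 1372 with PBS, with differences of −0.98 in KA minus PBS and −0.78 in KA+NAP minus NAP. By contrast Kcnip1, a partner found mainly in interneurons, was among the 2 members with both KA-injected arrays above the others, at 178 and 173 with KA+NAP and KA against 153 and 158 with NAP and PBS. Kcnip3, also known as calsenilin or DREAM, a calcium-dependent repressor of transcription, had 387 with KA+NAP, 322 with KA, 439 with NAP and 342 with PBS. Its differences of −0.08 and −0.18 were small.

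Of the pores themselves, Kcnd2, the main dendritic A-type subunit of pyramidal cells, had 1255 with KA+NAP and 945 with KA, against 1340 with NAP and 1603 with PBS. It stood at −0.76 in KA minus PBS and at −0.09 in KA+NAP minus NAP. The second probe set of Kcnd2 gave −0.54 and −0.20, in the same order. Kcnd3, the A-type subunit of many interneurons, had 642 with KA+NAP, 1020 with KA, 925 with NAP and 983 with PBS. Only the KA+NAP array was low for that probe set, but the second one had −0.54 in KA minus PBS and −0.65 in KA+NAP minus NAP. Kcnd1, near the filter, stood at −0.57 and −0.42. The non-Kcn partner Dpp6 was at −0.50 in KA minus PBS and −0.42 in KA+NAP minus NAP, and Dpp10 at −0.45 and −1.29.

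The electrically silent subunits, which form no channel alone and modify Kcnb channels, held a member at 2-fold. Kcng2 had 295 with KA+NAP and 271 with KA, against 484 with NAP and 660 with PBS. The difference was −1.25 in KA minus PBS and −0.70 in KA+NAP minus NAP, and its second probe set gave −0.82 and −0.36. Kcns3 had 344 with KA+NAP and 287 with KA, against 365 with NAP and 486 with PBS, a difference of −0.74 without NAP and −0.08 with it. Kcnv1 was low on a single array. It had 549 with KA+NAP, while KA, NAP and PBS gave 1005, 966 and 1005, so that it was at 0.00 in KA minus PBS and −0.80 in KA+NAP minus NAP. Kcnb2, the one Kcnb gene with a value here, was below the filter.

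Kcnq5, a subunit of the M-type current that restrains repetitive firing, was lowest on the KA+NAP array. Its intensity was 845 with KA+NAP and 1289 with KA, against 1907 with NAP and 1994 with PBS. The 2 arrays without KA were close, and the differences were −1.16 in KA+NAP minus NAP and −0.63 in KA minus PBS. Its other 2 probe sets were below the filter, with mean intensities of 21 and 11.25, and gave 0.14 and 0.51 in KA+NAP minus NAP. The mean over all 3 was −0.17. Its other M-type partner Kcnq3 was below the filter, at 22 with KA+NAP, 31 with KA, 37 with NAP and 41 with PBS. The Kcnh genes of the ether-à-go-go family lay near 0 in KA minus PBS, Kcnh1 at 0.01 and Kcnh3 at −0.06. In KA+NAP minus NAP they were at −0.47 and −0.22.

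The large-conductance calcium-activated (BK) channel showed different values for its pore and its neuronal auxiliary subunit. The pore gene Kcnma1 was nearly level, with 1031 on the KA+NAP array, 1123 on the KA array, 1079 on the NAP array and 1198 on the PBS array. Its differences were −0.09 in KA minus PBS and −0.07 in KA+NAP minus NAP, although a dimmer probe set past the filter gave 0.68 in KA minus PBS. Kcnmb4, the beta subunit that slows BK gating in neurons, had 326 with KA+NAP and 401 with KA, against 546 with NAP and 634 with PBS. Its differences were −0.65 and −0.73. None of the 3 small-conductance and intermediate-conductance Kcnn genes with a value here passed the filter.

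Among the inward rectifiers, Kcnj16 had the largest difference of any member past the filter. Kcnj16 encodes the pH-sensitive subunit that pairs with the astrocyte channel Kcnj10. Its intensity was 47 with KA+NAP and 79 with KA, against 209 with NAP and 132 with PBS. The KA-injected arrays were the 2 lowest, and the NAP array was the highest. The log2 difference was −1.94 in KA+NAP minus NAP and −0.67 in KA minus PBS. The second probe set read 36 and 96 with KA+NAP and KA, against 125 and 129 with NAP and PBS, with differences of −1.55 and −0.39. Kcnj10 itself was read by 1 probe set at 10, 8, 15 and 13 with KA+NAP, KA, NAP and PBS, which is at the level of the pseudocount and gives no order. Astrocyte markers, a list that holds Kcnj10, had 10 of 11 past the filter. They summed to 39390 with KA+NAP and 36094 with KA, against 43087 with NAP and 43151 with PBS. Their median was −0.29 in KA minus PBS and −0.31 in KA+NAP minus NAP, and their part in the Kcnj16 values was not tested.

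Of the G-protein-gated rectifiers, which open under GABA-B and adenosine receptors, Kcnj3 and Kcnj6 were lower on both KA-injected arrays. Kcnj6 had 832 with KA+NAP and 1045 with KA, against 1376 with NAP and 1534 with PBS, with differences of −0.72 in KA+NAP minus NAP and −0.55 in KA minus PBS. Kcnj3 had 90 with KA+NAP and 111 with KA, against 162 with NAP and 124 with PBS, with −0.78 and −0.15. Kcnj9, below the filter, read 28 with KA+NAP, where KA, NAP and PBS gave 54, 55 and 50. Of the strong rectifiers, Kcnj4 was at −0.69 and Kcnj14 at −0.38 in KA+NAP minus NAP, and at 0.02 and −0.33 in KA minus PBS. All 6 Kcnj genes past the filter lay below 0 in KA+NAP minus NAP (47.3% of all genes did), with a median of −0.70. In KA minus PBS their median was −0.39 and 5 of 6 lay below 0 (47.2% of all genes).

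**Figure D3:**
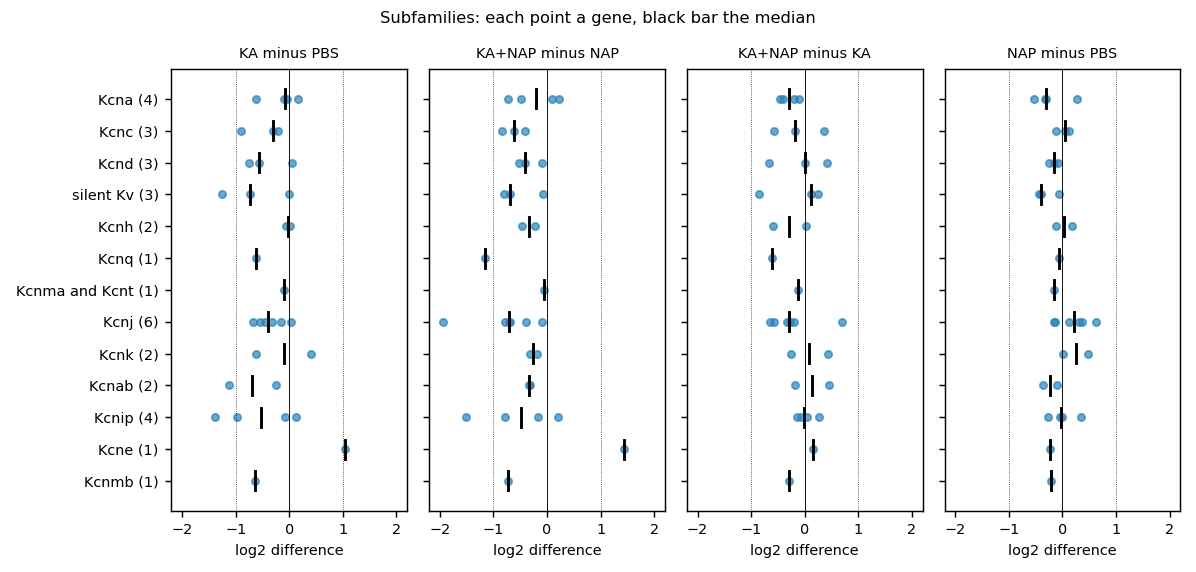
Log2 differences by subfamily in the 4 comparisons, with the number of genes past the filter in parentheses. Each point is a gene and the black bar is the subfamily median. The Kcnj median is −0.39 in KA minus PBS and −0.70 in KA+NAP minus NAP, and Kcne4 is the one point at 2-fold to the right.

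Both tandem-pore genes past the filter stayed under 2-fold. Kcnk2, a leak channel opened by stretch and polyunsaturated lipids, had 260 with KA+NAP and 190 with KA, against 297 with NAP and 296 with PBS, so that both KA-injected arrays were below both others. It was at −0.61 in KA minus PBS and −0.19 in KA+NAP minus NAP. Kcnk1, a leak subunit of neurons and astrocytes, had 108 with KA+NAP, 131 with KA, 138 with NAP and 96 with PBS. Its 2 KA differences had opposite signs, 0.41 and −0.33.

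The Kcnab genes encode cytoplasmic beta subunits that are structurally oxidoreductases and give Kcna channels fast inactivation or surface delivery. Kcnab2 had 1380 with KA+NAP and 1010 with KA, against 1719 with NAP and 2215 with PBS. It was at −1.13 in KA minus PBS and −0.31 in KA+NAP minus NAP, and the second probe set past the filter gave −0.93 and −0.39. Kcnab1 had 2610 with KA+NAP and 2962 with KA, against 3312 with NAP and 3541 with PBS, with −0.26 and −0.34. Thus both beta subunits were lower on both KA-injected arrays, by different amounts.

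Kcne4, a single-span subunit known to inhibit several Kv channels, was the one member past the filter at least 2-fold higher. Its intensity was 165 with KA+NAP and 147 with KA, against 55 with NAP and 66 with PBS. Both KA-injected arrays lay above both others, an order that 32.3% of all genes past the filter had. The log2 difference was 1.43 in KA+NAP minus NAP and 1.05 in KA minus PBS. The mean of Kcne4 over the 2 arrays without KA was 60.5, under the filter. A higher value on the KA-injected arrays was thus a condition of its entry. Kcne4 was read by 1 probe set. Other Kcne genes (Kcne1, Kcne2 and Kcne3) were below the filter. Macrophage and vessel cell types can express this gene. Infiltrating myeloid and lymphoid markers, 5 of 8 past the filter, summed to 1457 with KA+NAP and 765 with KA, against 357 with NAP and 217 with PBS. With the arrays in the same order, microglia and macrophage markers summed to 6595, 3784, 5304 and 5737, and endothelial markers to 2753, 2061, 2919 and 2178. The median of the microglia and macrophage markers was 0.13 in KA minus PBS and 0.97 in KA+NAP minus NAP. Pericyte and smooth muscle markers summed to 2330, 1464, 810 and 588, and without the gene Tagln to 498, 416, 502 and 452. The part of these lists in the Kcne4 values was not tested.

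Differences between the NAP and PBS arrays were smaller. In NAP minus PBS the median was −0.10 over the 33 members against 0.02 over all genes, 22 members lay below 0 (45.2% of all genes), and 0 members reached 2-fold (among all genes, 1.05% lay 2-fold or more above PBS and 0.242% as far below). The lowest values were those of Kcna4 at −0.53, Kcng2 at −0.44, Kcns3 at −0.40 and Kcnab2 at −0.36. The highest were those of Kcnj16 at 0.63, Kcnk1 at 0.48, Kcnj3 at 0.36 and Kcnip3 at 0.35. A second probe set past the filter gave −0.04 for Kcnj16, 0.03 for Kcng2 and −0.35 for Kcnab2. Of the 10 members with more than 1 probe set past the filter, 2 had all of them on the same side of 0 here.

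In injured tissue, KA+NAP minus KA had a median of −0.18 against 0.03 over all genes. Below 0 lay 21 of 33 members (45.4% of all genes), and again 0 of 33 members reached 2-fold (among all genes, 1.52% lay 2-fold or more above KA and 0.601% as far below). With ties counted, the KA+NAP array was the lowest of the 4 for 19 of the 33 members, which it was for 26.3% of all genes. Kcnd1 was among the 19 through a tie, at 68 with both KA+NAP and KA. Lowest in this comparison were Kcnv1 at −0.86, Kcnd3 at −0.66, Kcnj16 at −0.64 and Kcnq5 at −0.60. Highest were Kcnj11, the pore of the neuronal ATP-sensitive channel, at 0.69, Kcnab2 at 0.45, Kcnk2 at 0.43 and Kcnd2 at 0.41. Where these genes had a second probe set past the filter, it gave the same sign but not always the same size. It was at −0.09 for Kcnd3, −1.20 for Kcnj16, 0.19 for Kcnab2 and 0.37 for Kcnd2. Kcnj11 had 188 with KA+NAP and 113 with KA, against 200 with NAP and 159 with PBS. Its 2 dimmer probe sets, both below the filter, gave 0.19 and −0.47 in KA+NAP minus KA, and the mean over all 3 was 0.14. This comparison shares the KA array with KA minus PBS, so the values of the 2 are given side by side only.

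The difference between the KA effects with and without NAP was 1 or more in size in 1 of the 33 members, which it was in 3.52% of all genes past the filter. Taken as the difference with NAP minus that without, it was −1.27 for Kcnj16. Next were Kcnab2 at 0.81 and Kcnv1 at −0.80. No replicate exists against which to set these values.

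Genes that work with the channels were also mostly lower. Of 22 scaffold, clustering and non-Kcn auxiliary genes past the filter, 1 fell by 2-fold or more in KA minus PBS, the anchoring protein gene Akap5. Among all genes past the filter, 2.39% did. A rise of that size was seen in 0 of the 22, against 4.91% of all genes. The median was −0.44, and −0.39 in KA+NAP minus NAP. In that second comparison Akap5, Dpp10 and Lgi1 fell by 2-fold or more (2.41% of all genes did), and Abcc9 rose as far (5.66%). Akap5, which ties kinases and calcineurin to Kcnq and other channels, had 61 with KA+NAP and 43 with KA, against 173 with NAP and 210 with PBS. Lgi1, the secreted epilepsy gene product that acts on Kcna channels at terminals, had 532 with KA+NAP and 652 with KA, against 1152 with NAP and 1141 with PBS. Of the sodium, calcium and HCN channel genes that depolarise the cell, 8 past the filter, 0 were at 2-fold in either comparison. The shares of all genes were those given above. The medians of the 8 were −0.43 in KA minus PBS and −0.41 in KA+NAP minus NAP. Against these the potassium channel medians were −0.30 and −0.42. Genes of potassium uptake and siphoning, 11 past the filter, were at −0.09 and −0.28. The astrocyte gap junction gene Gjb6 was the one at 2-fold, at −2.78 in KA minus PBS and −2.38 in KA+NAP minus NAP. Of all genes past the filter, 0.885% fell by 2-fold or more in both.

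**Figure D4:**
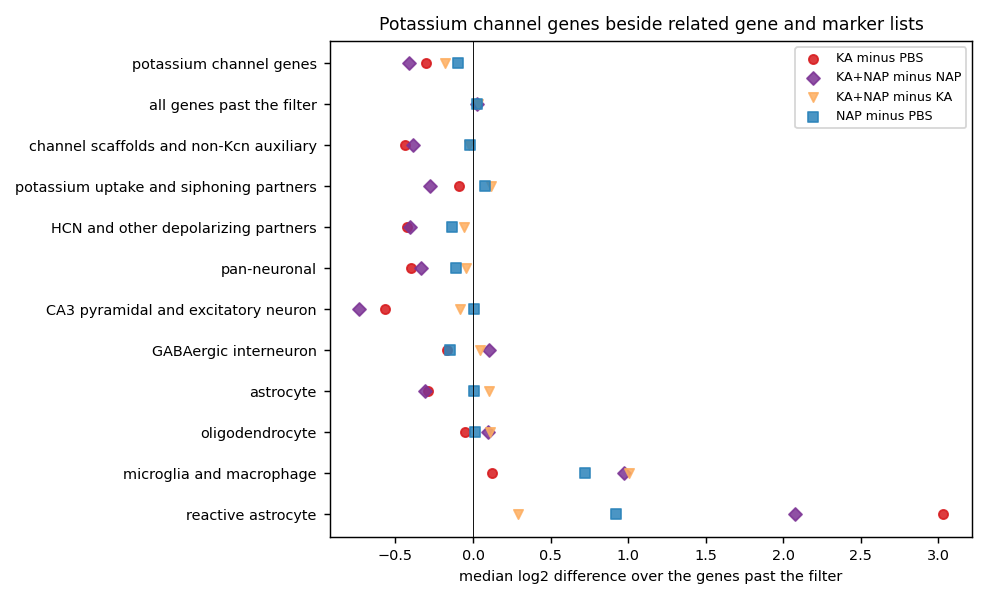
Median log2 difference over the genes past the filter for potassium channel genes, all genes, related gene lists and cell type markers, in the 4 comparisons. Potassium channel genes are at −0.30 in KA minus PBS and −0.42 in KA+NAP minus NAP. Near them are the pan-neuronal markers at −0.40 and −0.34 and the astrocyte markers at −0.29 and −0.31. All genes are at 0.02 and 0.03.

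The remaining 42 members were dim. 5 of them (Kcne1, Kcnh4, Kcnh7, Kcnj1 and Kcnq1) were at or under an intensity of 10 on all arrays, and 22 were so on at least 1 array. Their median was −0.09 in KA minus PBS and 0.06 in KA+NAP minus NAP. Over all 75 members, dim ones included, the medians were −0.13 and −0.18. Only Kcnn4, the intermediate-conductance channel of microglia and T cells, was above the filter value on a single array. It was listed at 82 with KA+NAP, 16 with KA, 10 with NAP and 0 with PBS. Kcnk10, a leak channel related to Kcnk2, had 22 with KA+NAP and 21 with KA, against 8 with NAP and 12 with PBS. On that probe set the log2 difference was 0.83 in KA+NAP minus NAP and 0.49 in KA minus PBS, at levels close to the pseudocount. A second, dimmer probe set of Kcnk10 read 8 with KA+NAP and 24 with KA, against 8 with NAP and 10 with PBS. It gave 0.00 in KA+NAP minus NAP and 0.77 in KA minus PBS, so the order depends on the probe set.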

How the data were processed

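Expression in 4 samples, 1 array per group, was read from the deposited table of MAS5 intensities (MAS5 per the submitters' processing notes). The sources used here state neither its version nor detection calls. Per the labels' protocols, each sample's 500 ng of total RNA passed a 2-cycle amplification, which favours 3′ ends. The deposited intensities were whole numbers with 1180 zeros among 31099 probe sets, and the authors' scaling had already set the mean without 2% of the values at each end to 250.1 on every array. Symbols came from the platform annotation (20832 probe sets with 1 symbol, 436 with several and left out, 9780 not listed and not named here), updated through the Entrez identifier for the 20764 in the GRCr8 gene table. No symbol of a member changed.

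Values were log2(intensity + 10), the pseudocount being the table's 20th percentile. A gene took its brightest probe set and was kept above a mean of 62.75. With 1 array per group no test, p-value or standard error was computed, and 2-fold is a fixed rule of size. All members past the filter are named. Full values go to those at 2-fold, those with the 6 highest and 6 lowest mean KA differences, the 4 at each end of the other comparisons, and 30 channels listed for their role, of which 3 were not analysed here. The members and gene lists were chosen with earlier results of these data known. Summaries were tested on simulated data. Python 3.11.15, numpy 2.4.6 and pandas 2.3.3 were used. The number of arrays limits the precision. Sequences are RefSeq upstream windows, and protein sequences were not used here.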

Additional observations from a re-analysis of the deposited data

Results flagged for a closer look

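In 7 members, all below the filter, the KA difference had opposite signs without and with NAP and the 2 differed by 1 or more on the log2 scale. That is 16.7% of the 42 members below the filter, and 12.2% of all 4728 genes below it did the same. Each rests on 1 array per group, and the difference was not tested. Taken as the KA difference with NAP minus that without, the value was −1.80 for Kcnb2 and −1.31 for Kcnn3, whose higher value in KA minus PBS was not seen with NAP. It was 1.65 for Kcnk5, 1.22 for Kcnh2, 1.18 for Kcnk6, 1.15 for Kcnj8 and 1.0 for Kcnk9, which were below PBS on the KA array and above NAP on the KA+NAP array. Kcnj8, the pore of the vascular ATP-sensitive channel, had 57 with KA+NAP and 36 with KA, against 32 with NAP and 54 with PBS. Kcnb2, Kcnk5 and Kcnk9 had an intensity of 10 or less on at least 1 array.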

How the results depend on the processing

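The median of the potassium channel genes stayed below 0 in all 4 comparisons under each alternative run: a pseudocount of 1 or 50, a filter at the 75th percentile, on the NAP and PBS arrays as well, or none, the mean over all probe sets of a gene, quantile normalization, arrays centred on their median, and symbols as annotated. The other array without KA as the baseline was run for KA minus PBS and KA+NAP minus NAP only, and both medians stayed below 0. A median was held to have moved when it shifted by 0.15 or more, and a count when it changed by over 1.5 times. Of 76 recomputed medians and counts, 67 did neither. With the filter at the 75th percentile the KA minus PBS median was −0.61 over 19 members, and 2 members were at 2-fold in KA+NAP minus NAP. With no filter, over 75 members, the medians were −0.13 in KA minus PBS and −0.18 in KA+NAP minus NAP. The counts at 2-fold were then 8 in KA+NAP minus NAP, 3 in KA+NAP minus KA and 5 in NAP minus PBS. These counts include genes at or under an intensity of 10. With the mean over all probe sets, 1 member (Kcne4) was at 2-fold in KA minus PBS. With PBS as the baseline of KA+NAP, 7 were, namely Kcna2, Kcng2, Kcnip2, Kcnip4, Kcnj16, Kcnq5 and Kcne4. No share of all genes is given beside the counts of these alternative runs, so they cannot be read as many or few. Kcne4 in KA minus PBS was at 0.76 with a pseudocount of 50, under 2-fold. It was also under 2-fold in KA minus PBS with quantile normalization and with arrays centred on their median. The mean over all probe sets put Kcnq5 at −0.17 in KA+NAP minus NAP, its other 2 probe sets, both below the filter, being at 0.14 and 0.51. No named difference at 2-fold changed sign. The filter applied to the NAP and PBS arrays as well, an alternative chosen after seeing the data, left out Kcne4 and moved no median by 0.15. No paired analysis was possible because each group has 1 array, so the groups compared share fewer than 2 replicate numbers. An additive fit of KA and NAP over the 4 arrays was not run.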

Other observations

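ATP-sensitive potassium channels couple metabolism to excitability and pair a Kcnj pore with a sulphonylurea receptor. The receptor gene Abcc9, found in vessel mural cells, had 180 with KA+NAP and 123 with KA, against 68 with NAP and 81 with PBS, a log2 difference of 1.28 in KA+NAP minus NAP and 0.55 in KA minus PBS. The neuronal receptor gene Abcc8 had 60 with KA+NAP and 46 with KA, against 62 with NAP and 85 with PBS. Pericyte and smooth muscle markers, a list that holds Abcc9 and had 5 of 7 members past the filter, summed to 2330 with KA+NAP and 1464 with KA, against 810 with NAP and 588 with PBS. Tagln, a smooth muscle actin-binding protein, made most of that difference, with 1832 and 1048 with KA+NAP and KA, against 308 and 136 with NAP and PBS. Without it the sums were 498 and 416, against 502 and 452. The list's median was −0.17 in KA+NAP minus NAP and 0.30 in KA minus PBS.

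Genes of chloride cotransporters and of the sodium pump differed in direction. The neuronal potassium-chloride cotransporter Slc12a5 had 1988 with KA+NAP and 1915 with KA, against 3318 with NAP and 2922 with PBS. The sodium-potassium-chloride cotransporter Slc12a2, which loads cells with chloride, had 2359 with KA+NAP and 1971 with KA, against 1602 with NAP and 1630 with PBS. Slc12a5 was at −0.61 in KA minus PBS and −0.74 in KA+NAP minus NAP, and Slc12a2 at 0.27 and 0.56. Of the sodium pump's beta subunits, in the same order, Atp1b1 was at −0.24 and −0.28, Atp1b2 at −0.76 and −0.41, and Atp1b3 at 0.26 and 0.52.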
